A study of Mus musculus with 6 samples.

Results

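The mRNAs described here encode 36 nuclear-encoded proteins of the last steps of oxidative phosphorylation, namely 9 subunits of complex III, cytochrome c, 10 proteins of complex IV and 16 of the ATP synthase. They were taken by Ensembl identifier from the 16976 identifiers of the count table, and all 36 had a count in at least 1 library. RNA was recovered with an antibody against LARP1, an RNA-binding protein, from dorsal root ganglia of wild-type mice, which house the cell bodies of sensory neurons. The injured group (3 libraries) came from mice whose sciatic nerve had been injured, and the uninjured group (3 libraries) from mice without that injury. The labels give no strain, age, time after injury or number of pooled animals. The identifiers came without symbols, so the list of cell type markers of the ganglion was not analysed here.

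Complex III passes electrons from ubiquinol to cytochrome c, and complex IV passes them from cytochrome c to oxygen, with protons pumped across the inner mitochondrial membrane on the way. The ATP synthase lets protons flow back through a rotating ring of c subunits and uses the rotation to make ATP in its F1 head. A few core subunits are encoded in mitochondrial DNA, but those listed here are made from nuclear genes on cytosolic ribosomes and imported, and long sensory axons depend on the ATP they help to make. LARP1 is known for binding the 5′ end of mRNAs that begin with a terminal oligopyrimidine (TOP) tract, which is a C at the cap followed by an unbroken run of C or T.

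Because of this binding preference, the bases around the annotated transcription start of the members were examined, from RefSeq promoter windows of build GRCm38.p6. This build is older than the GRCm39 named for the counts and serves for sequence alone. All 36 members matched a RefSeq gene, and 29 had 32 start sites that were used. None was used for Uqcrb, Uqcrc2, Uqcrq, Cyc1, Cox4i1, Cox6c and Atp5f1a. Member sites on a single chromosome were left out, while the set of all sites kept that chromosome. A missing member site therefore need not mean that the table holds no entry. A start with C followed by at least 4 further pyrimidines was annotated for 3 of these 32 sites (9.38%) and for 823 of all 32851 start sites in the table (2.51%), read on the transcribed strand. By the longest run of pyrimidines anywhere in the window of 30 bases the members were much like the rest, with a run of at least 7 at 6 of the 32 sites (18.8%) against 17.9% of all sites, and a median longest run of 4.5 against 4 bases. These are the 3 sites, each shown from 10 bases before the start to 20 bases from it on, so that the start is base 11, with the longest run of pyrimidines in capitals.
Uqcrfs1, chr13:30545297-30545326, minus strand: cctcccgCTCCTCTTCgggccgtcgttcga
Atp5f1d, the second of 2 starts, chr10:80142305-80142334, plus strand: catcgcgcagCCTTCggagaatcctgtgcg
Atp5mc2, chr15:102671028-102671057, minus strand: gcgcccccgCCCCTCTCTgtcttctctgcc

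The following windows, drawn in the same way, belong to members picked by their calls and ratios, so they are examples. They are the 3 members with lower levels in the injured reads, and the 3 with the highest ratios among those called higher that have an entry.
Atp5f1e, lower, chr2:174464082-174464111, minus strand: gtccgcgtaccccaCCCCTTCCgctactca
Uqcr11, lower, chr10:80406802-80406831, minus strand: CTTCacgcatgcgctatacgtctgcacatg
Atp5if1, lower, chr4:132535395-132535424, minus strand: aaagTTTCatagtgttgccctggttgtctc
Cox5a, higher, chr9:57521222-57521251, plus strand: CCCagcgtgcgtcgctgcgtgagtccggcc
Cox6b1, higher, chr7:30626095-30626124, minus strand: tccgCTTCCCgtctgacattggcgtctttg
Uqcr10, higher, chr11:4704325-4704354, minus strand: attgggTTCTacgcaagcgcagtggcgcga
Of these 6, only Atp5f1e began with C, with 3 pyrimidines from the start and a run of 8 from base 15 of the window. The other 5 began with G or A, and the share of all start sites that begin with C was not computed. Annotated starts can lie some bases from the start used in ganglia, and a run of letters is no measure of LARP1 binding.

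The uninjured libraries held 116186 to 116608 counts and the injured libraries 211337 to 211879. Within a group the libraries differed by little more than counting noise. The variance between libraries over counting noise was 1.16 over 3827 uninjured genes and 1.12 over 6152 injured genes, and for the members it was 0.77 over 28 and 0.927 over 33, with at least 15 counts in the group. Each group was therefore summed and counted as 1 sample, and separate animals are not named in the labels. Levels are CPM, the counts scaled to a common total of the summed group, and every interval below is a 95% exact interval that covers counting error only, since amplified reads are not independent molecules where no molecular identifiers are used. The differences have no replicate check, and injury and preparation batch cannot be told apart. Libraries this alike also part into groups without overlap wherever the ratio is sizeable. Such separation is therefore no replication, and the share of all genes without overlap was not computed. Wherever libraries are said below to overlap or not, this only describes the reads of 2 samples. With no input RNA analysed here, more LARP1 binding and more mRNA in the tissue cannot be told apart, nor can fewer cells of a type and less RNA per cell.

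As a group, these mRNAs took up more of the injured precipitate, at 19845 CPM against 15348 CPM in the uninjured one. The increase came mainly from complex IV, while 3 abundant members went the other way: the ATP synthase inhibitor Atp5if1, the F1 subunit Atp5f1e and the complex III subunit Uqcr11. By library the sum of all members was 15099, 15394 and 15553 CPM without injury and 19936, 19874 and 19726 CPM with injury, so the groups did not overlap. The ratio of injured to uninjured levels was 1.29 (1.25 to 1.34). It was 1.23 on the scale of edgeR's TMM normalization and 1.43 without Atp5if1, the most counted member.

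In edgeR's quasi-likelihood test over 3158 genes with Benjamini-Hochberg adjustment, 17 members were called higher in the injured reads and 3 lower. A further 8 were tested and not called, and 8 had too few counts to be tested. Cox5a and Cox7b had enough counts for the test only in the injured libraries, where they were high. They could hardly have been called lower, and both are included in the 17 and in the numbers past each fold below. Of all genes tested, 24.9% were called higher and 22.1% lower. This test compares the reads of 2 samples and not the conditions, so no p-value is given for a gene. Among the 28 members tested, 15 were past 1.5-fold higher and 2 past 1.5-fold lower by the ratio of CPM, against 30% and 21% of all genes tested. More than 2-fold higher levels were found for 9 of the 28 and more than 2-fold lower levels for 0, against 18.2% and 10.2% of all genes. The median ratio was 1.61 over the 28 members tested and 1.06 over all genes tested. Over the 35 members with a ratio or a bound, which take in members with too few counts to be tested, it was 1.59.

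Calls depended on the spread assumed between animals, which these libraries do not measure. With the counts of each group summed and a coefficient of variation of 0.2 assumed in edgeR's exact test, 5 members were called higher, namely Cox5a, Cox6c, Uqcr10, Cox6b1 and Cox4i1, and 0 lower, against 9.66% and 5.57% of all genes tested. Of these, Cox5a entered the test only through its high injured counts. At an unadjusted p under 0.05, 9 members were higher and 1 lower, against 15.2% and 12.4% of all genes. With 0.4 assumed, 0 members were called in either direction, against 1.33% of all genes called higher and 0.158% lower. At the unadjusted threshold 2 were then higher and 0 lower, against 5.83% and 2.03% of all genes.

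**Figure D1:**
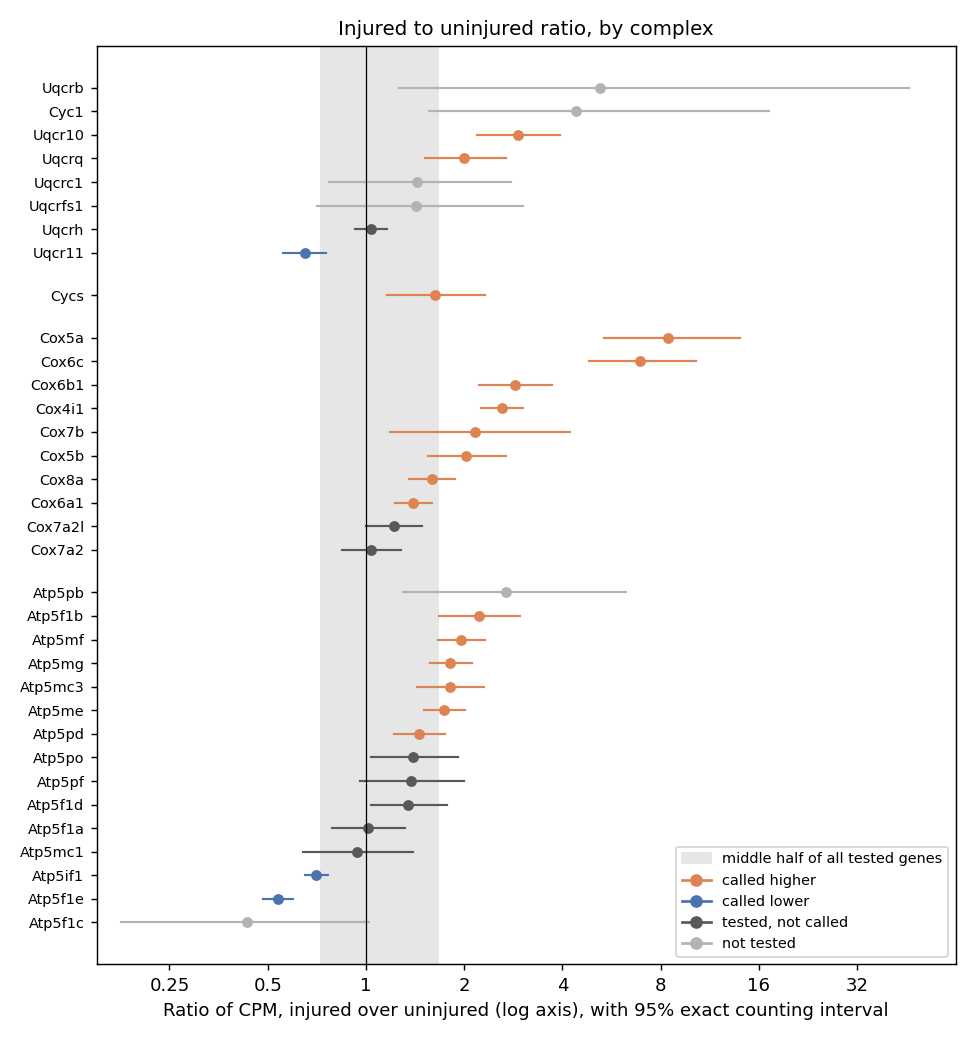
Ratio of CPM in the injured over the uninjured group (log axis) for the 34 members with counts in both groups, ordered within complex III, cytochrome c, complex IV and the ATP synthase, with 95% exact counting intervals; the grey band is the interquartile range of all 3158 genes tested, 0.728 to 1.67. Cox5a and Cox6c lie farthest to the right among the members tested, and Uqcr11, Atp5f1e and Atp5if1 are the 3 called lower.

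Complex IV showed the largest summed difference of the 3 complexes, and 8 of its 10 members were called higher in the injured reads and 0 lower. Among all genes tested, 24.9% were called higher and 22.1% lower. Cox5a and Cox7b are among the 8, and they entered the test only through their high injured counts. Its mRNAs summed to 3519, 3748 and 3615 CPM in the uninjured libraries and 7254, 6970 and 7086 CPM in the injured libraries. Every injured library was above every uninjured one, and the ratio of the summed groups was 1.96 (1.84 to 2.09). Without Cox4i1, the most counted of them, the ratio was 1.82 (1.70 to 1.95). Complex IV held 23.6% of the members' counts without injury (22.5% to 24.8%) and 35.8% with injury (35.0% to 36.6%).

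The highest ratio among the members tested belonged to Cox5a (ENSMUSG00000000088), a matrix-side subunit that joins the complex early in assembly together with Cox4i1. It had 6, 7 and 7 counts without injury and 95, 122 and 90 with injury, or 51.6, 60.0 and 60.3 CPM against 448, 577 and 426 CPM. Only the injured libraries had enough counts for the test, so the high level there also brought Cox5a into it. The injured level was 8.44 times the uninjured one (5.37 to 14.0), above 98.0% of all genes tested. Cox6c (ENSMUSG00000014313), a small membrane subunit, was next. Its libraries read 129, 68.6 and 77.5 CPM without injury and 665, 558 and 681 CPM with injury, and the ratio was 6.93 (4.83 to 10.3). For both genes every injured library lay far above every uninjured one, which is a description and no replication.

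Cox6b1 (ENSMUSG00000036751), which sits on the intermembrane side, and Cox4i1 (ENSMUSG00000031818), the subunit through which ATP and ADP act on the enzyme, came behind them. Cox6b1 was at 155, 257 and 232 CPM without injury and at 642, 563 and 634 CPM with injury, a ratio of 2.85 (2.22 to 3.70). Cox4i1 was at 533, 720 and 654 CPM without and at 1760, 1670 and 1537 CPM with injury, a ratio of 2.60 (2.25 to 3.02). Neither gene's groups overlapped. Cox5b, a zinc-binding subunit, had a ratio of 2.03 (1.55 to 2.70). That of Cox7b was 2.16 (1.19 to 4.21), from only 14 uninjured counts, and its call was lost without any 1 of the 3 uninjured libraries (edgeR log2 fold change 1.02, and 0.92 to 1.07 without one of them), with limma-voom (0.93) and with DESeq2 (1.11). It had too few counts to be tested without the second or the third injured library and with the injured libraries thinned. Cox8a and Cox6a1, both called higher, had smaller ratios of 1.59 (1.36 to 1.87) and 1.40 (1.23 to 1.59).

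Not every complex IV mRNA was higher. Cox7a2 (ENSMUSG00000032330) was at 413, 455 and 370 CPM in the uninjured and 411, 435 and 440 CPM in the injured libraries, and the groups overlapped. Its ratio was 1.04 (0.846 to 1.28), and on the TMM scale its log2 fold change was -0.02. The related Cox7a2l encodes a factor known for a part in joining complexes III and IV into supercomplexes, which was not measured here. It was at 447, 497 and 319 CPM without and 548, 530 and 459 CPM with injury, and the groups overlapped here too. The ratio was 1.22 (0.998 to 1.49), with no call.

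**Figure D2:**
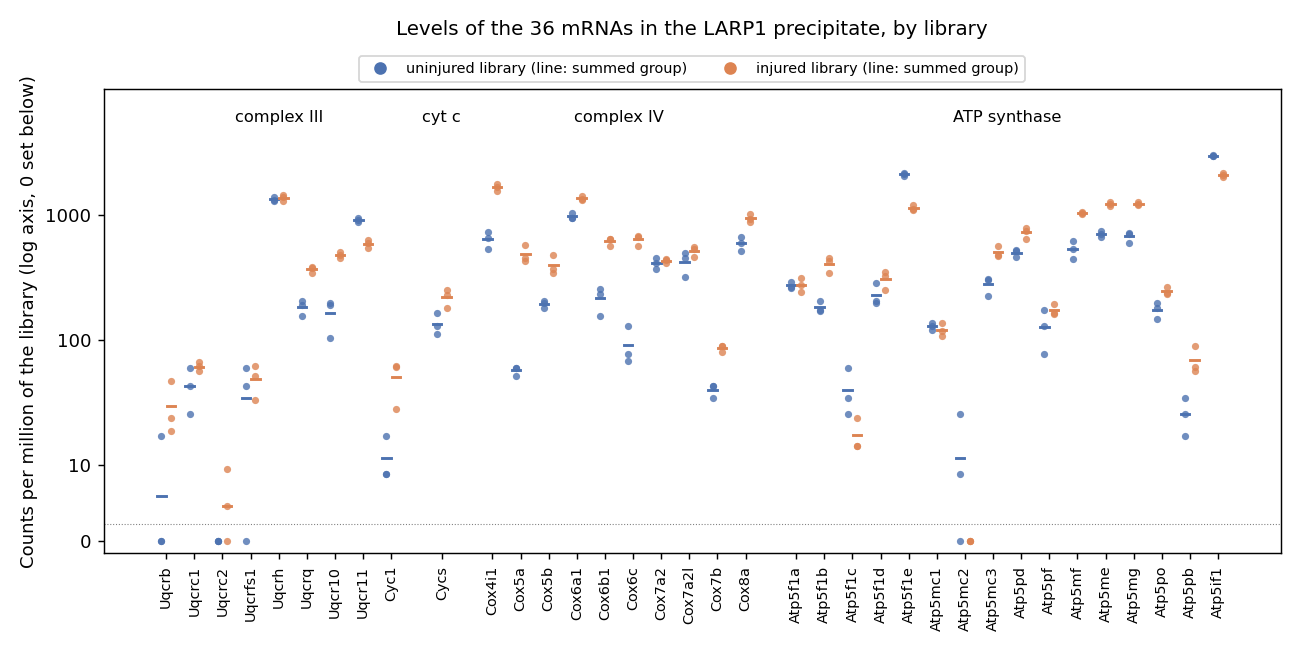
CPM of each of the 36 mRNAs in the 3 uninjured (blue) and 3 injured (orange) libraries on a log axis, with points at 0 drawn below the dotted line and a bar for the summed group. Injured points stand above uninjured ones for most complex IV genes, and below them for Uqcr11, Atp5f1e, Atp5if1 and the thinly counted Atp5f1c. They are mixed for genes that include Uqcrh, Uqcrc1, Uqcrfs1, Cox7a2, Cox7a2l, Atp5f1a, Atp5f1d, Atp5mc1 and Atp5pf. Reads were not scaled to transcript length, so heights of different genes are not compared.

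Complex III differed little in sum, and its members went in different directions. Of its 9 mRNAs, 2 were called higher (Uqcr10 and Uqcrq), 1 lower (Uqcr11), 1 was not called (Uqcrh), and 5 were not tested. The shares over all genes tested were 24.9% higher and 22.1% lower. The sum was 2641, 2573 and 2789 CPM in the uninjured and 2997, 3061 and 2919 CPM in the injured libraries, a ratio of 1.12 (1.04 to 1.21). That was 1.21 (1.08 to 1.35) without Uqcrh.

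The small accessory subunits carried most of these counts. Uqcr10 (ENSMUSG00000059534), which lies next to cytochrome c1, was at 198, 103 and 189 CPM without injury and at 500, 473 and 454 CPM with injury, a ratio of 2.91 (2.19 to 3.94). Uqcrq was at 189, 154 and 207 CPM without and at 345, 383 and 374 CPM with injury, a ratio of 2.00 (1.51 to 2.68). All injured libraries were above all uninjured libraries for these 2 genes, which is a description and no replication.

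Uqcr11 (ENSMUSG00000020163), another small subunit, was at 903, 935 and 878 CPM without injury and at 543, 592 and 629 CPM with injury. All its injured libraries were below all uninjured ones, and the level without injury was 1.54 times that with injury (1.32 to 1.79). Uqcrh, the hinge protein that bridges to cytochrome c1, was at 1273, 1304 and 1386 CPM without and at 1383, 1424 and 1291 CPM with injury. Its groups overlapped, the ratio was 1.03 (0.923 to 1.16), and the sign was the opposite on the TMM scale, with a log2 fold change of -0.02. Uqcrb, the ubiquinone-binding protein of the complex, had 0, 0 and 2 uninjured and 10, 5 and 4 injured counts, a ratio of 5.23 (1.26 to 46.3), and was not tested.

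The core and redox subunits were thinly counted, with 31 uninjured and 105 injured counts over 4 genes, and none was tested. Cyc1, the cytochrome c1 that hands electrons to cytochrome c, had 2, 1 and 1 uninjured and 13, 13 and 6 injured counts, a ratio of 4.40 (1.56 to 17.1). Uqcrfs1, the Rieske iron-sulfur protein, had 0, 5 and 7 uninjured and 11, 7 and 13 injured counts, a ratio of 1.42 (0.710 to 3.04). The core protein Uqcrc1 was at a similar ratio of 1.43 (0.771 to 2.79). The other core protein, Uqcrc2, had 0 uninjured and 3 injured counts, so no ratio is given, because neither group was above 3 counts, the limit that a count of 0 allows (8.60 CPM in the uninjured and 4.73 CPM in the injured group).

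Cycs (ENSMUSG00000063694) encodes somatic cytochrome c, the mobile carrier between complexes III and IV. It was at 163, 129 and 112 CPM in the uninjured and at 179, 251 and 227 CPM in the injured libraries, so the groups did not overlap, though the closest pair lay near each other. The ratio was 1.63 (1.16 to 2.32). Its edgeR log2 fold change was 0.63, and the call was lost without the second uninjured (0.59), the third uninjured (0.50) or the second injured library (0.57), with DESeq2 (0.70) and without a filter on low counts (0.74). Cycs has processed pseudogenes in the mouse, and reads shared with such copies are assigned by estimation.

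The ATP synthase barely differed in sum, because its parts went in opposite directions. Over its 16 mRNAs the sum was 8775, 8944 and 9037 CPM without injury and 9505, 9591 and 9494 CPM with injury, a ratio of 1.07 (1.02 to 1.12). This small difference shrank to 1.02 on the TMM scale and to 1.00 with the 10 most abundant genes of the table left out of the totals, and it grew to 1.25 (1.18 to 1.31) without Atp5if1. Of the 16, 6 were called higher, 2 lower and 5 neither, and 3 were not tested, beside 24.9% higher and 22.1% lower over all genes tested.

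The F1 head was lower in sum with injury, as was the inhibitor described further on, with 2825 CPM without and 2140 CPM with injury, a ratio of 0.757 (0.697 to 0.823). This came from Atp5f1e (ENSMUSG00000016252), the epsilon subunit at the foot of the central stalk. It was at 2116, 2144 and 2040 CPM in the uninjured and at 1189, 1088 and 1116 CPM in the injured libraries. All injured libraries were far below all uninjured ones, and the level without injury was 1.86 times that with injury (1.67 to 2.06).

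The catalytic beta subunit Atp5f1b (ENSMUSG00000025393) went the other way. It was at 172, 172 and 207 CPM without injury and at 345, 449 and 426 CPM with injury, with no overlap, and the ratio was 2.22 (1.68 to 2.96). Its partner in the catalytic hexamer, the alpha subunit Atp5f1a, had overlapping libraries and a ratio of 1.01 (0.785 to 1.31), with a log2 fold change of -0.05 on the TMM scale. Atp5f1d, the delta subunit of the central stalk, had overlapping libraries and a ratio of 1.35 (1.03 to 1.77). It was not called, but it was without the third injured library, where its log2 fold change went from 0.36 to 0.55, without TMM factors (0.47) and in the exact binomial test on summed counts (0.42). Atp5f1c, the gamma shaft, had 14 uninjured and 11 injured counts, and the level without injury was 2.31 times that with injury (0.976 to 5.63).

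The 3 membrane accessory subunits, which bind the enzyme into dimers at the ridges of cristae, were all called higher with much the same ratio. Atp5mf was at 439, 532 and 620 CPM without and at 1057, 1017 and 1036 CPM with injury, a ratio of 1.96 (1.66 to 2.32). The ratios of Atp5mg and Atp5me were 1.81 (1.57 to 2.11) and 1.74 (1.51 to 2.02). Atp5me was at 705, 660 and 740 CPM without and at 1175, 1216 and 1273 CPM with injury. Summed, the 3 had a ratio of 1.83 (1.67 to 2.00), and no injured library overlapped an uninjured one.

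The peripheral stalk, which keeps the F1 head from turning with the rotor, had a summed ratio of 1.47 (1.28 to 1.69). Of its 4 mRNAs 3 were tested, and of these only Atp5pd was called, at 456, 515 and 525 CPM without and 746, 644 and 785 CPM with injury, a ratio of 1.45 (1.22 to 1.74). Atp5po, the OSCP subunit at the top of the stalk, had a ratio of 1.40 (1.03 to 1.91) and, among the alternatives run, was called only without TMM factors. Atp5pf was at 172, 77.2 and 129 CPM without and 165, 194 and 161 CPM with injury, and the groups overlapped (ratio 1.37, 0.961 to 2.00). Atp5pb, which was not tested, had 3, 4 and 2 uninjured and 13, 19 and 12 injured counts, a ratio of 2.69 (1.29 to 6.26).

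Atp5if1 (ENSMUSG00000054428), the small protein that blocks ATP hydrolysis when the proton gradient fails, held the most counts of any member. It was at 2977, 2942 and 2926 CPM without injury and at 2157, 2006 and 2077 CPM with injury. The groups were well apart, and the level without injury was 1.42 times that with injury (1.30 to 1.54).

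**Figure D3:**
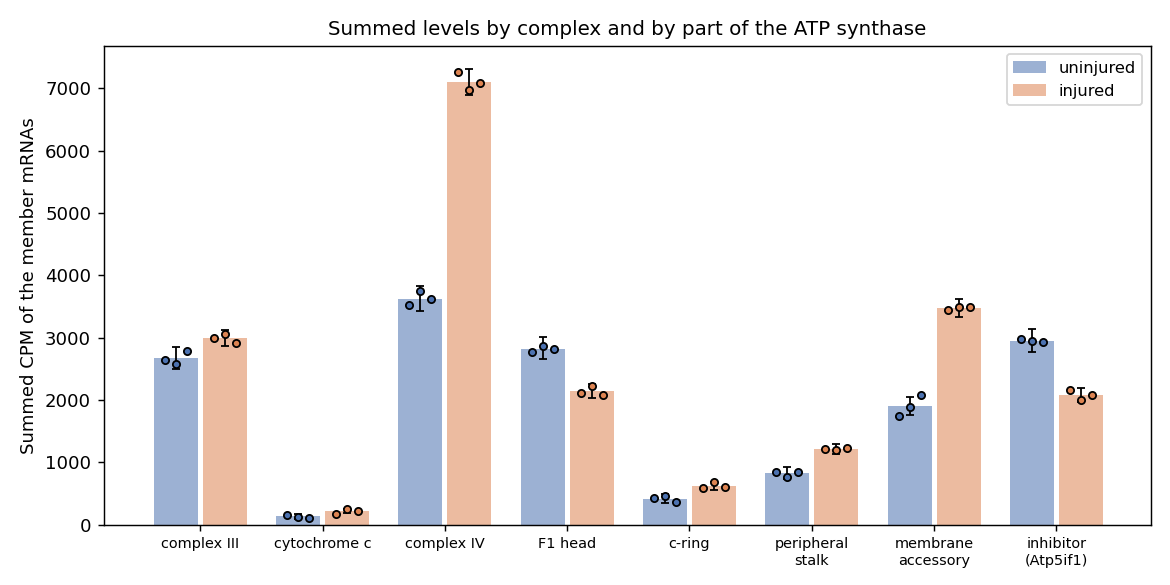
Summed CPM of the member mRNAs for complex III, cytochrome c, complex IV and 5 parts of the ATP synthase, with bars for the summed groups, 95% exact Poisson intervals as error bars and points for the 3 libraries of each group. Complex IV goes from 3627 to 7104 CPM and the membrane accessory subunits from 1902 to 3475 CPM. Atp5if1 is lower in the injured group, as is the F1 head, whose lower sum came from Atp5f1e.

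The c-ring is built from a single kind of protein that is encoded by 3 genes, Atp5mc1, Atp5mc2 and Atp5mc3, which differ in the import signal removed after entry into mitochondria. The 3 genes together had a ratio of 1.49 (1.23 to 1.82), and this came from Atp5mc3 (ENSMUSG00000018770). Atp5mc3 was at 301, 309 and 224 CPM without and at 477, 563 and 468 CPM with injury, with no overlap and a ratio of 1.81 (1.44 to 2.29). Atp5mc1 was at 120, 129 and 138 CPM without and at 109, 118 and 137 CPM with injury, with overlapping groups and a ratio of 0.941 (0.643 to 1.39).

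Atp5mc2 (ENSMUSG00000062683), whose TOP-like start is printed above, had 1, 3 and 0 uninjured counts and 0 in every injured library. Against the limit of 3 counts over the injured group, the level read from these 4 counts was at least 2.42-fold lower with injury, and the exact interval, which also takes in the error of the 4 counts, began at 1.2-fold lower. Without the second uninjured library 1 count was left, which is under that limit, so no fold could then be given. Of all c-ring counts, Atp5mc3 held 66.4% (58.2% to 74.0%) without injury and 80.6% (76.3% to 84.3%) with injury. The share of Atp5mc1 was 30.8% (23.5% to 39.0%) without and 19.4% (15.7% to 23.7%) with injury. Atp5mc2 held 4 of 146 counts (2.74%, 0.751% to 6.87%) without injury, and 1.09% when the second uninjured library was left out. It held 0 of 396 counts with injury, which allows a share of up to 0.758% by the limit of 3 counts and up to 0.927% by the exact interval.

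Atp5if1, Atp5f1e and Uqcr11, the 3 mRNAs called lower, together held 38.8% of the members' counts without injury (37.5% to 40.1%) and 19.1% with injury (18.5% to 19.8%). These 3 were picked by their calls, which fixes the direction, so the shares are a description. The remaining 33 members summed to 9395 CPM without and 16046 CPM with injury. Of the other 2 sites with a TOP-like start, Uqcrfs1 was too thinly counted to be tested and Atp5f1d was not called.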

How the data were processed

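RNA precipitated with LARP1 was measured in 6 libraries of wild-type mouse dorsal root ganglia, 3 injured and 3 uninjured, with groups taken from the sample titles. The table deposited by the authors holds estimated counts for each Ensembl gene, which were not normalized. The submitters' processing notes name minimap2, Salmon and GRCm39 (mm39), without versions. Per the labels' protocols, a nanopore kit with amplification and barcodes was used. All values were whole, so rounding changed none, and reads of overlapping or near-identical genes are assigned by estimation. Symbols of the 36 members came with the list of identifiers, and RefSeq older names were matched through synonyms. The members and lists were chosen with earlier results of these data known, as were the sequence windows. Values in every library were to be given for the highest and lowest ratio in each role among members with at least 30 counts and for 7 fixed genes, and others were added.

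All genes were fitted with edgeR 4.0.16 (R 4.3.3), TMM factors, filterByExpr and an adjusted p threshold of 0.05, after the test was checked on simulated data. Ratios of CPM use full library totals and Clopper-Pearson intervals, and levels have Poisson intervals. Alternatives were limma-voom (limma 3.58.1), DESeq2 1.42.0, different scalings and filters, assumed spreads, thinning, the replicate number as a block and leaving out each library. The lists of cell type markers and further pathway genes were not analysed here, because no table paired identifiers with symbols.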

Additional observations from a re-analysis of the deposited data

How the results depend on the processing

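The 17 higher and 3 lower members stayed within 1.5 times those numbers in every alternative but the assumed spreads, with 15 to 17 higher and 3 lower when 1 library was left out. With an assumed coefficient of variation of 0.2 between animals, 305 genes were higher and 176 lower, 5 and 0 of them members, and with 0.4, 42 and 5, with 0 and 0 members. Without TMM factors the median log2 fold change of all genes moved from 0.0069 to 0.12. Without 1 library, 2603 to 4251 genes were tested, 27 to 32 of them members, and 638 to 836 genes were higher and 582 to 756 lower. Leaving out a library takes away reads of the same sample, so it is no check between animals. With the replicate block 17 of 28 members tested were higher and 3 lower, among 750 and 677 of 3158 genes tested. The numbers were not taken as pairs, since deviations of libraries with the same number had correlations of 0.0389, -0.00625 and -0.0506. Ratios of summed counts taken within replicate numbers, a setting added after the data were seen, had geometric means of 1.12 for complex III, 1.96 for complex IV, 1.07 for the ATP synthase, 1.63 for cytochrome c and 1.29 for all members, and changed no direction.

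Of 473 values of single members under the 17 alternatives, 402 kept direction and side of the threshold, 45 lost and 4 gained a call, and 22 changed sign, all of them in members without a call. In edgeR's log2 fold change, Uqcrh became 0.086 without TMM factors, 0.092 with no filter, 0.047 under DESeq2 and 0.048 in the exact binomial test, and lay between -0.059 and 0.075 without 1 library. Cox7a2 became 0.092, 0.098, 0.053 and 0.053 in these settings and 0.035 with injured libraries thinned, and lay between -0.10 and 0.070 without 1 library. Atp5f1a became 0.056, 0.061, 0.017 and 0.015, and lay between -0.10 and 0.092 without 1 library. Atp5mc1 became 0.0012 with injured libraries thinned. The cause of these changes was not tested.

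The median log2 ratio over the members, 0.67, was 0.58 with the 10 most abundant genes left out of the totals and 0.61 to 0.79 without 1 library, the highest without the first uninjured one. With those 10 genes left out, the summed ratios were 1.83 for complex IV, 1.00 for the ATP synthase and 1.21 for all members; on the TMM scale they were 1.02 for the ATP synthase and 1.23 for all members. Without the most counted member, a setting added after the data were seen, they were 1.82, 1.25 and 1.43. The depth leaves 8 members with counts too few for the test.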
